A study of Homo sapiens with 12 samples.

Results

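The genes described here build respiratory complexes II, III, IV and V of human mitochondria. They were taken from a pooled Cas9 knockout library by name, as all genes whose symbol begins with SDHA to SDHD, UQCR, UQCC, COX or COA and a digit, ATP5 or ATPAF, together with SCO1, SCO2, SURF1, BCS1L, CYC1, TTC19 and LRPPRC. The rule found 74 of the 18053 targeted genes, with 276 of their 70948 guides. They comprise 6 genes of complex II, 13 of complex III, 36 of complex IV and 19 of complex V. By role, 4, 9, 10 and 14 of these encode subunits and 2, 4, 18 and 2 encode assembly or expression factors. Complex IV also includes 7 tissue isoforms and related genes and 1 gene copy (COX6A1P2), and complex V includes 1 gene copy (ATP5L2) and 2 genes that carry its name, ATP5S and ATP5SL. Most genes (65) had 4 guides, 3 had 3, COX6C had 2, and UQCRB, COX20, COX7B, ATP5L2 and ATP5J2 had 1.

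Complex II (succinate dehydrogenase) passes electrons from succinate to ubiquinone, complex III passes them from ubiquinol to cytochrome c, and complex IV (cytochrome c oxidase) reduces oxygen. Complexes III and IV pump protons across the inner mitochondrial membrane, and complex V (ATP synthase) uses the resulting gradient to make ATP. All subunits of complex II are encoded in the nucleus, whereas the other complexes also contain subunits made from mitochondrial DNA, which no guide of this library targets.

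The counts came from 12 libraries of 3 screens with the TKOv3 guide library, in which cells that lose a needed gene disappear from the population and take its guides with them. Cells of the triple-negative breast cancer line HCC1806 were screened once with INX-315, an inhibitor of the cell cycle kinase CDK2, at 500 nM, and once with palbociclib, an inhibitor of CDK4 and CDK6, at 500 nM. The pancreatic cancer line MIA PaCa-2 was treated with INX-315 at 500 nM and palbociclib at 250 nM. The HCC1806 INX-315 screen has 1 start library, 2 DMSO (vehicle) libraries and 2 INX-315 libraries, the HCC1806 palbociclib screen has 1 start, 1 DMSO and 1 palbociclib library, and the MIA PaCa-2 screen has 1 start, 1 DMSO, 1 INX-315 and 1 palbociclib library. All groups, controls included, carry Cas9, the guide library and puromycin resistance. The labels place the HCC1806 start libraries at passage 0, the MIA PaCa-2 start at passage 1 and every later library at passage 8, while the methods give up to 5 passages. Loss from the start therefore covers different intervals in the lines, and line and interval cannot be told apart. The palbociclib doses are those of the methods; the treatment field of the labels gives a single value in another unit for both lines. The study describes the numbered HCC1806 libraries as biological replicates; the sources do not say whether they came from separate infections.

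Library totals ran from 24946956 to 58875726 counts. DMSO 1 of the HCC1806 INX-315 screen stood apart: across guides its log2 CPM (counts scaled to the library total) correlated with DMSO 2 at 0.543 and with INX-315 1 at 0.540, while the INX-315 libraries correlated with each other at 0.964. Guides below 30 counts numbered 11906 in it and 4368 in DMSO 2. In MIA PaCa-2 the INX-315 library correlated with DMSO at 0.700 and the palbociclib library at 0.910. Most calls of members that use DMSO 1 are therefore given with and without it, as are the losses and the median drug scores by complex. Other results, among them the drug scores of other gene groups, use both DMSO libraries. Where no count was seen, 3 counts were taken as the upper limit, equal to 0.0510 to 0.120 CPM depending on the library. Such limits cover counting error only because the reads carry no molecular identifiers.

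Loss of these genes in the absence of drug was examined first. The change of a gene is the median over its guides of the log2 difference in CPM (with 0.5 added) between a DMSO library and the start library of the same screen, and a gene was called lost at −1 or less. In the HCC1806 INX-315 screen, with both DMSO libraries averaged, 45 of the 74 genes were lost, against 22.9% of all genes. In the HCC1806 palbociclib screen 42 were lost, against 13.8% of all genes, and in MIA PaCa-2 30 were lost, against 8.64%. Taken alone, DMSO 1 gave 49 lost members and DMSO 2 gave 40, where 43.7% and 13.4% of all genes were lost. The median change of the 74 genes was −1.70 in DMSO 1, −1.32 in DMSO 2, −1.88 in the palbociclib screen and −0.67 in MIA PaCa-2, and that of all genes was −0.83, −0.09, −0.08 and −0.04. The members thus stood lower than the genes at large in each DMSO library, and 26 of them were lost in all 4 DMSO libraries, as were 6.87% of all genes.

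**Figure D1:**
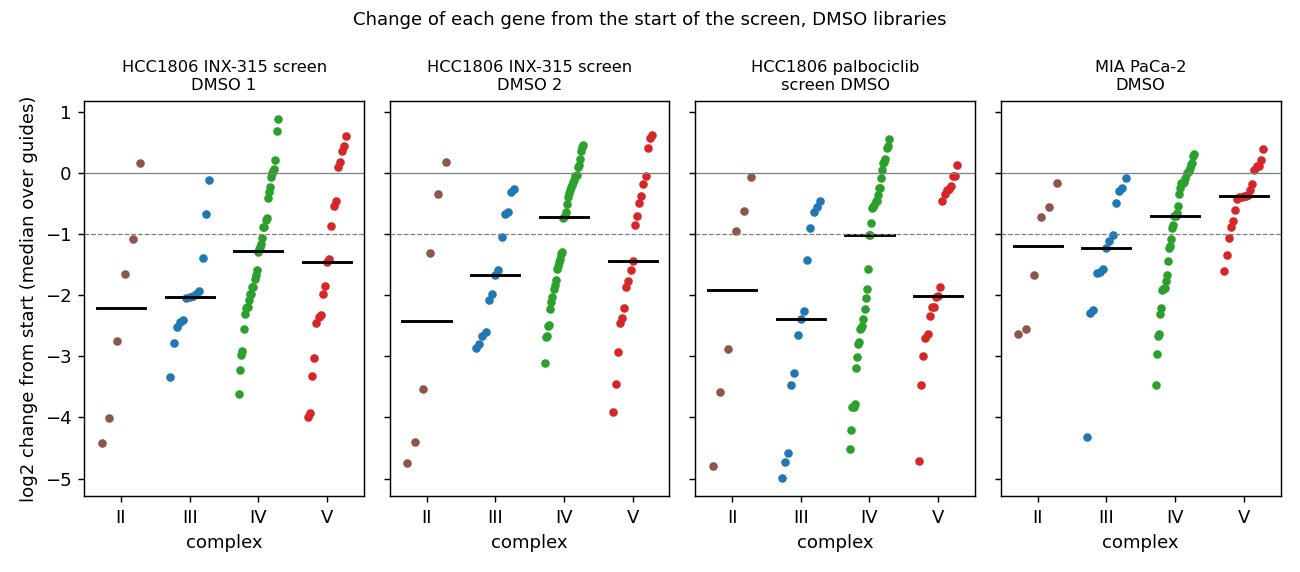
Change of each of the 74 genes from the start in the 4 DMSO libraries (vertical axis, log2, median over guides), by complex (horizontal axis). Each point is a gene, the black line is the median of the complex and the dashed line marks the limit of −1 at which a gene was called lost. Complex V lies near 0 in MIA PaCa-2 (median −0.38) and at −1.46, −1.44 and −2.01 in the 3 HCC1806 libraries.

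In complex II 3 of 6 genes, SDHA, SDHB and SDHC, were lost in all 4 DMSO libraries, and SDHA had the lowest mean over the HCC1806 screens of all 74 genes. SDHA, the flavoprotein that oxidises succinate, changed from the start by −4.00 and −4.41 in the 2 DMSO libraries of the HCC1806 INX-315 screen, −4.79 in the palbociclib screen and −2.56 in MIA PaCa-2. SDHB, the iron-sulphur subunit, had −4.42, −4.75, −3.58 and −2.63 in the same order. Both were low in every library of both lines. SDHC, a membrane anchor that holds haem b, had −2.76, −3.53, −2.88 and −1.68, and its partner anchor SDHD had only −1.08, −1.31, −0.95 and −0.56. The assembly factors were lost less. SDHAF2, which attaches the flavin to SDHA, had −1.66 and −0.34 in DMSO 1 and DMSO 2, −0.63 in the palbociclib screen and −0.73 in MIA PaCa-2, and SDHAF1, which helps to place the iron-sulphur clusters of SDHB, lay between −0.16 and 0.17.

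In summed guides, SDHA held 48.6 and 47.6 CPM at the start of the HCC1806 INX-315 and palbociclib screens and 49.0 CPM in MIA PaCa-2. It held 0.98 and 1.99 CPM in DMSO 1 and 2, 0 in DMSO of the palbociclib screen and 5.67 CPM in MIA PaCa-2 DMSO. With 0 counts in the palbociclib screen, where 3 counts would be 0.0865 CPM, only an upper limit can be given for SDHA there.

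Complex III was lost in both lines, with medians of −2.02, −1.67, −2.40 and −1.22 over DMSO 1, DMSO 2, the palbociclib screen and MIA PaCa-2. The same 8 of its 13 genes were lost in all 4 DMSO libraries: the core subunits UQCRC1 and UQCRC2, the Rieske iron-sulphur protein UQCRFS1, cytochrome c1 (CYC1), the small subunits UQCRB and UQCRQ, and the assembly factors BCS1L, which inserts the Rieske protein, and UQCC2, which acts on cytochrome b. UQCRFS1 had −1.93, −2.67, −3.46 and −2.25, so its loss was of like size in the lines. BCS1L had −2.02, −2.79, −4.73 and −4.32, and by this median over guides it was the most lost member in MIA PaCa-2. In summed guides it fell there from 62.4 to 16.6 CPM, less than COX5A of complex IV, which fell from 42.3 to 4.21 CPM. CYC1 had −1.39, −1.67, −2.40 and −1.01, and UQCRC1 had −2.78, −2.07, −2.65 and −1.11. UQCRB had −3.33, −2.60, −4.99 and −1.63 but rests on 1 guide. UQCRH, the hinge protein, was lost in the palbociclib screen (−2.26) and MIA PaCa-2 (−1.57) and not in DMSO 1 and DMSO 2 (−0.66 and −0.26). UQCC1, the partner of UQCC2, had −1.98 and −1.98 in the HCC1806 INX-315 screen, −0.55 in the palbociclib screen and −0.08 in MIA PaCa-2.

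Complex IV divided by the role of its genes. The 18 assembly and expression factors had median changes of −1.80, −1.63, −2.37 and −0.99, and of the 10 subunits 7, 5, 5 and 6 were lost in the same libraries. The 7 isoforms and related genes, among them the muscle and testis forms COX6A2, COX7A1, COX6B2, COX7B2 and COX8C, had −0.41, −0.05, 0.06 and 0.04. Of the subunits, COX5B had −3.61, −3.11, −4.20 and −2.66, and COX5A had −2.98, −2.69, −3.79 and −3.46, which placed both among the 5 most lost members of a line. COX4I1, the ubiquitous form of subunit 4, had −2.19, −1.30, −2.55 and −1.22. COX6A1, COX6C and COX7B were not lost in any HCC1806 DMSO library, where they lay between −0.56 and 0.43. COX6C and COX7B rest on 2 guides and 1 guide, and the latter was lost in MIA PaCa-2 (−1.89).

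The factors that make complex IV differed among themselves. COX10 and COX15, which convert haem b to haem a, had −2.92, −2.66, −3.83 and −2.20, and −1.97, −2.49, −3.19 and −1.67. The copper chaperones SCO1 (−1.67, −1.75, −2.79 and −1.43), SCO2 (−3.22, −2.02, −3.82 and −2.31) and COA6 (−2.07, −2.51, −4.51 and −2.63) each had their lowest value in the palbociclib screen. COX17, which passes copper to the SCO proteins, had −2.30, −2.22 and −3.00 in HCC1806 against −0.54 in the other line. COA5, a factor of early assembly, had −1.86, −1.52 and −2.54 in HCC1806 against −2.96 in MIA PaCa-2, and there it was among the 5 most lost members. That order held for the median over guides only. In summed guides COA5 fell from 81.5 to 28.3 CPM in MIA PaCa-2. It fell from 78.6 to 26.2 and 24.2 CPM in the HCC1806 INX-315 screen and from 70.4 to 15.8 CPM in the palbociclib screen. LRPPRC, which stabilises mitochondrial messenger RNAs, had −0.89, −1.46, −1.90 and −0.90. SURF1, another factor of haem a delivery, lay between −1.16 and 0.23 and was lost only in DMSO 1.

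Complex V had medians of −1.46, −1.44 and −2.01 in the HCC1806 libraries against −0.38 in MIA PaCa-2. Complex II had −2.21, −2.42 and −1.92 against −1.20, and complex IV had −1.27, −0.72 and −1.02 against −0.70. Complex V thus had the median nearest 0 in MIA PaCa-2, while its distance between the lines was larger than that of complex II against DMSO 1 and the palbociclib screen and smaller against DMSO 2. In both HCC1806 screens 10 of its 19 genes were lost. In MIA PaCa-2 3 were (ATP5D, ATP5H and ATP5J2, the last with 1 guide). The subunits of the catalytic head and stalks carried the loss in HCC1806. ATP5A1 (ATP5F1A in current nomenclature), the alpha subunit, had −4.00, −3.91 and −4.72 in HCC1806 and −0.79 in MIA PaCa-2. ATP5B (ATP5F1B), the catalytic beta subunit, had −2.36, −3.45 and −2.99 against −0.60. ATP5O (ATP5PO), which joins the head to the peripheral stalk, had −3.93, −2.94 and −2.64 against −0.88. In each of these genes every HCC1806 value lay below the MIA PaCa-2 value.

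The central-stalk subunits ATP5C1 (ATP5F1C, gamma) and ATP5D (ATP5F1D, delta) had −1.98, −2.21 and −2.20 against −0.27, and −3.32, −2.45 and −2.70 against −1.07. In 11 of the 19 complex V genes each HCC1806 DMSO library lay below MIA PaCa-2 DMSO, as it did in 4 of 6 genes of complex II, 7 of 13 of complex III, 15 of 36 of complex IV, 49 of 76 of the mitochondrial ribosome and 34.9% of all genes. ATP5G1, ATP5G2 and ATP5G3 (ATP5MC1 to ATP5MC3), which all encode the same mature c subunit of the membrane ring, were not lost in either line apart from ATP5G1 in DMSO 1 (−1.46), with the other values between −0.86 and 0.60. The assembly factor ATPAF2, a chaperone of the alpha subunit, had −2.45, −1.76 and −1.87 in HCC1806 and −0.38 in MIA PaCa-2, while ATPAF1, a chaperone of the beta subunit, lay between −0.46 and 0.36. ATP5SL (DMAC2), which despite its name acts in complex I assembly, had −1.84, −0.86, −3.47 and −0.40.

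ATP5A1 shows the difference between the lines in summed guides. Its 4 guides together held 69.3 and 61.9 CPM at the start of the HCC1806 INX-315 and palbociclib screens. They held 4.07 and 3.91 CPM in DMSO 1 and 2, 2.08 and 3.21 CPM in the INX-315 libraries, 3.49 CPM in DMSO of the palbociclib screen and 5.26 CPM with palbociclib. In MIA PaCa-2 they held 75.2 CPM at the start, 48.9 CPM in DMSO, 56.2 CPM with INX-315 and 51.2 CPM with palbociclib. All 6 HCC1806 libraries after the start were thus below all 3 MIA PaCa-2 libraries.

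**Figure D2:**
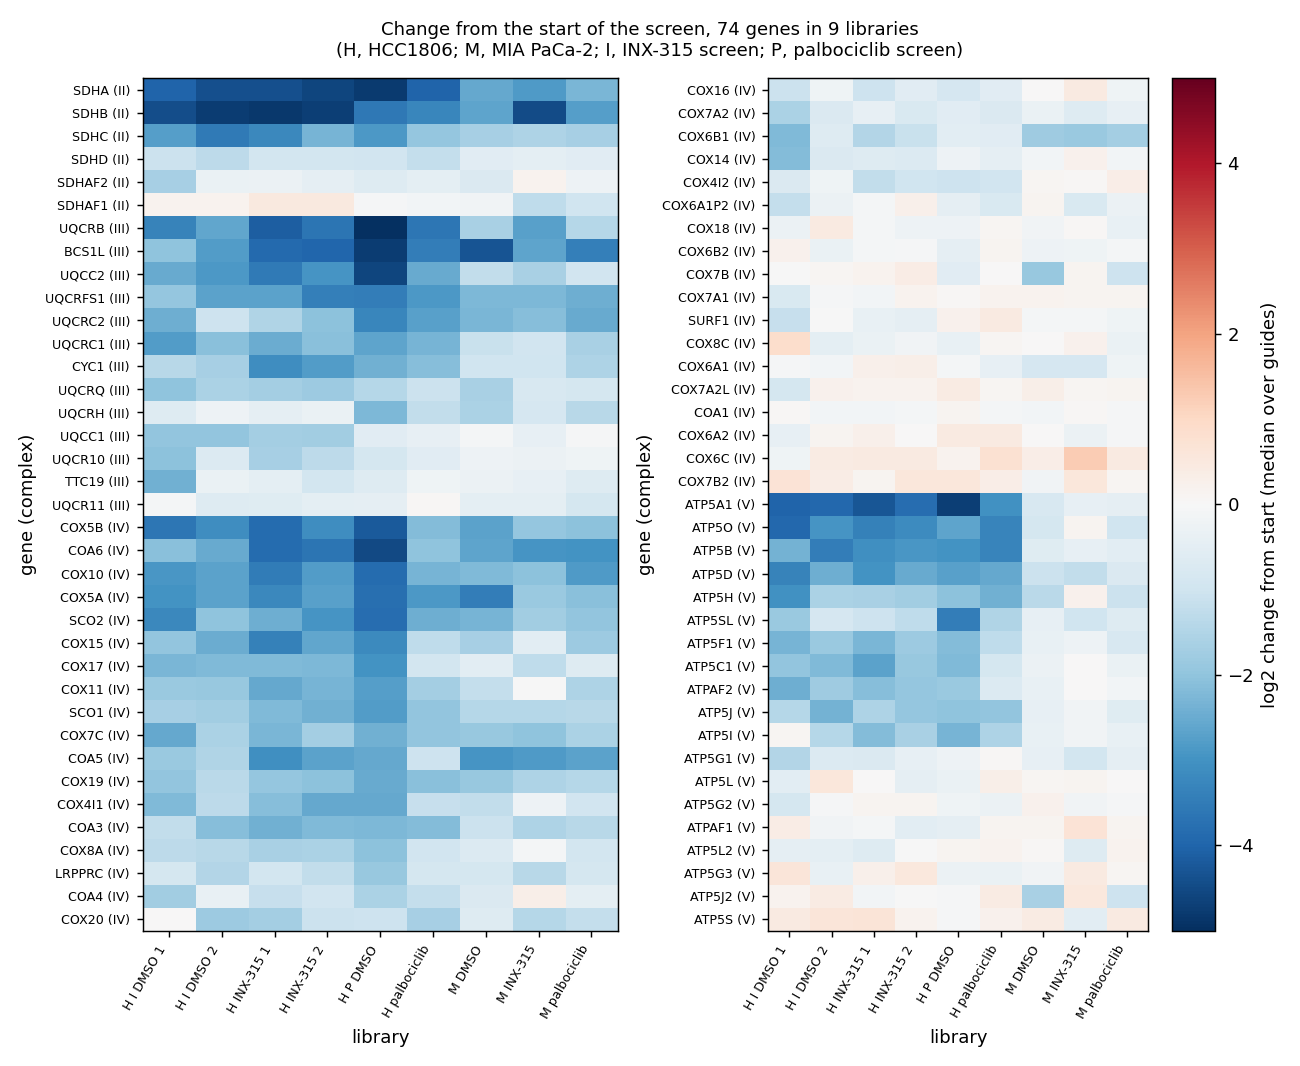
Change from the start (colour, log2, median over guides) of the 74 genes (rows, by complex and within it by mean loss in HCC1806) in the 9 libraries after the start (columns). Blue marks loss; the upper rows of complex V are blue in the 6 HCC1806 columns and pale in the 3 MIA PaCa-2 columns, whereas SDHA and SDHB are blue in all 9.

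With libraries as the replicates, edgeR's quasi-likelihood test on counts summed over guides gave no member with an adjusted p under 0.05 for loss in HCC1806 (5 HCC1806 libraries and 2 of MIA PaCa-2, with screen as a block), and no gene at all among 18051. At an unadjusted p under 0.05, 34 members were lower, against 9.18% of all genes, and DESeq2 called 34 members lower at an adjusted p under 0.05, against 9.26%. Of the latter, 3 were of complex II, 8 of complex III, 16 of complex IV and 7 of complex V. The smallest adjusted p in edgeR were those of ATP5A1, with a log2 change of −4.05 ± 0.46 (SE), and SDHC, with −3.28 ± 0.39, both 0.0946. The count depended on the DMSO libraries of the INX-315 screen: without DMSO 1 edgeR called 41 members lower (11.1% of all genes), and without DMSO 2 it called 18 (6.03%).

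The difference in loss between the lines was tested in the same model, in which MIA PaCa-2 has 1 library per group and was assumed to vary like HCC1806. No member passed in edgeR, and no gene at all; at an unadjusted p under 0.05 1 member, ATP5A1, was lower in HCC1806, against 0.582% of all genes. Its difference was −3.41 ± 0.82 (SE, log2) with an adjusted p of 0.9998 in edgeR. DESeq2 gave it −3.41 ± 0.56 and an adjusted p of 5.7e-06, and it was the only member that DESeq2 called. Without DMSO 1, edgeR called ATP5A1 alone of the members (adjusted p = 0.00701), and without DMSO 2 none. For complex V as a whole, 15 of 19 genes had a difference below 0 (median −0.36), against −0.78 in complex II, −0.34 in complex III, −0.22 in complex IV and 0.02 over all genes, so on gene sums complex V did not stand beyond the others.

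The drug scores followed. Each gene was scored with DrugZ, which divides each guide's log2 ratio of drug to DMSO by the spread of guides with like DMSO counts, sums over guides and standardises the sum over all genes. The resulting normZ is called depleted under −2, where guides are fewer with the drug than in DMSO, and enriched over 2. In HCC1806 with INX-315, 8 members were depleted, against 2.77% of all genes, and 0 were enriched, against 1.44%. In HCC1806 with palbociclib, 0 were depleted, against 2.56%, and 13 were enriched, against 1.98%. In MIA PaCa-2 with INX-315, 0 were depleted, against 2.86%, and 3 were enriched, against 1.63%. In MIA PaCa-2 with palbociclib, 4 were depleted, against 2.65%, and 0 were enriched, against 1.79%. Of these comparisons, HCC1806 with INX-315 alone has replicate libraries, and the 2 of MIA PaCa-2 share a DMSO library.

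The median normZ of the 74 genes was −0.80 in HCC1806 with INX-315 and 0.93 with palbociclib, while in MIA PaCa-2 it was 0.39 with INX-315 and 0.23 with palbociclib. All genes had medians from 0.01 to 0.04. Complex III had the lowest median with INX-315 in HCC1806 (−1.37) and the highest with palbociclib (1.09). Complex IV had −0.78 and 0.88, complex V had −0.63 and 0.69, and complex II had −0.17 and 0.30. Against DMSO 2 alone the INX-315 medians of complexes II, III, IV and V in HCC1806 were 0.11, −1.30, −0.64 and −0.51. Against DMSO 1 alone they were −0.56, −0.86, −0.50 and −0.59, so the complexes lay closer together there. In MIA PaCa-2 the medians of complexes II, III, IV and V were 0.13, 0.22, 0.46 and 0.34 with INX-315, and 0.79, 0.43, 0.11 and 0.18 with palbociclib. For complex III, 12 of 13 genes had a normZ below 0 with INX-315 and above 0 with palbociclib in HCC1806. So did 24 of 36 in complex IV, 14 of 19 in complex V and 2 of 6 in complex II. Outside the members, 34 of the 45 NDUF genes of complex I did, as did 36 of 76 mitochondrial ribosome genes and 24.4% of all genes.

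**Figure D3:**
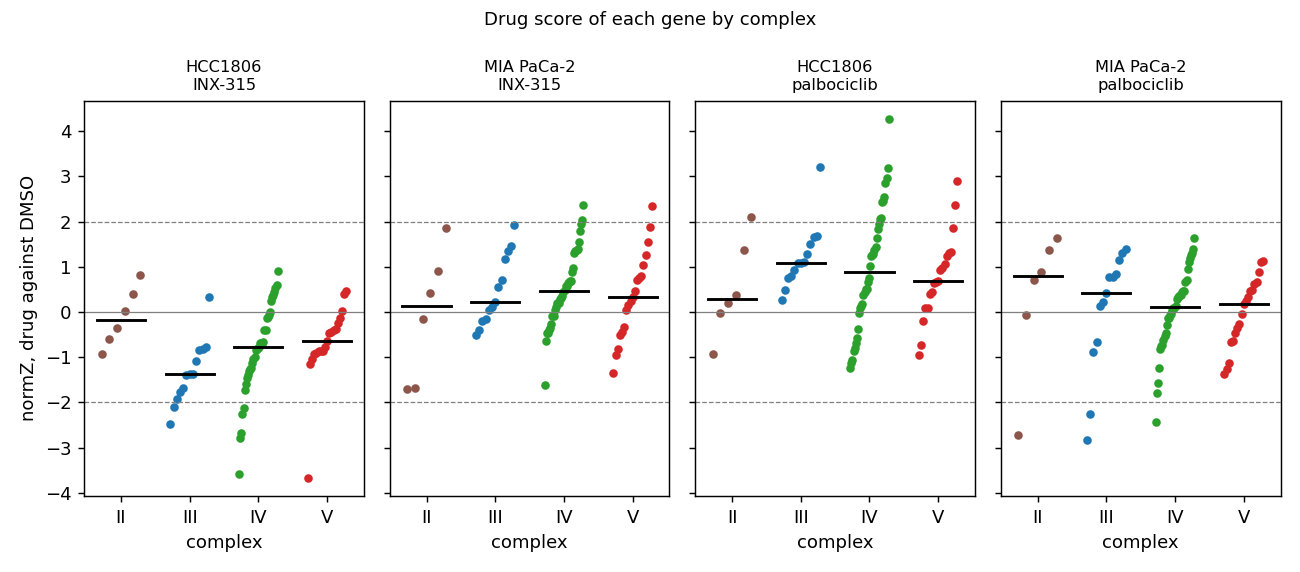
Drug score (vertical axis, normZ, drug against DMSO) of each of the 74 genes by complex (horizontal axis) in the 4 comparisons. Points are genes, black lines are medians and dashed lines mark −2 and 2. In HCC1806 the medians of complexes III, IV and V lie below 0 with INX-315 and above 0 with palbociclib, and in MIA PaCa-2 all lie between 0.11 and 0.79.

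The 8 genes depleted with INX-315 in HCC1806 were 2 of complex III, 5 of complex IV and 1 of complex V. ATP5I (ATP5ME), a small subunit of the ATP synthase membrane part that takes part in dimer formation, had the lowest score (−3.68), with 4 of 4 guides lower. COA6 had −3.59 with 4 of 4 guides lower, followed by COX4I1 (−2.77), COX15 (−2.68), BCS1L (−2.47), COX4I2 (−2.25), COA5 (−2.12) and CYC1 (−2.09). In summed guides CYC1 was not lower with the drug. It held 21.7 and 19.2 CPM in DMSO 1 and DMSO 2, and 23.2 and 23.9 CPM in INX-315 1 and INX-315 2. COX4I2 encodes the lung form of subunit 4 and had −0.73, −0.22 and −1.02 in the HCC1806 DMSO libraries. The adjusted p of DrugZ, which takes guides as replicates, was under 0.05 for ATP5I alone (0.0483), against 0.249% of all genes depleted at that limit, and was 0.0660 for COA6 and 0.384 or more for the others.

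With libraries as replicates, edgeR gave 0 members at an adjusted p under 0.05 for INX-315 in HCC1806, as it gave 0 genes of 18018, and DESeq2 also gave 0 members. At an unadjusted p under 0.05, edgeR had 4 members lower (UQCRQ, COX4I1, COA6 and ATP5I), against 1.95% of all genes, and 0 higher. Their log2 changes were −1.14 ± 0.35, −1.29 ± 0.41, −1.86 ± 0.62 and −1.77 ± 0.59 (SE), and all had an adjusted p of 0.745. When DMSO 1 was left out, edgeR called 12 members lower and 2 higher, and without DMSO 2 it called 30 lower and 8 higher. In those fits a single DMSO library stands for the group and the spread comes from the INX-315 libraries, and 8.49% and 36.5% of all genes were called lower. Higher calls then numbered 1238 of 18025 and 6706 of 18028 genes.

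The DMSO libraries also set the DrugZ calls. Against DMSO 2 alone 10 members were depleted, where 2.71% of all genes were, and against DMSO 1 alone 5 were, where 2.94% were. COA6 kept a normZ under −2 against each (−3.24 and −2.71), as did ATP5I (−2.06 and −3.63). In the pair of INX-315 2 and DMSO 2 alone, however, ATP5I had −1.44 and COA6 −2.69. In the pair of INX-315 1 and DMSO 1 alone ATP5I had −3.83 and COA6 −2.87. COX4I1, COX4I2 and COA5 were depleted against DMSO 2 (−3.11, −2.57 and −2.55) but had −1.52, −1.31 and −1.24 against DMSO 1. COX15 and BCS1L were depleted against DMSO 1 (−2.51 and −2.12) but had −1.78 and −1.70 against DMSO 2, and CYC1 was past −2 against neither (−1.65 and −1.73). All 8 had scores below 0 against each DMSO library. They were called on a score that used both of these libraries, so the shared sign is no separate check.

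The guide counts show what lies behind these scores. The 4 guides of COA6 held 345, 548, 503 and 685 counts at the start of the HCC1806 INX-315 screen. In DMSO 1 they held 48, 81, 203 and 186 counts and in DMSO 2 36, 104, 81 and 83. In INX-315 1 they held 6, 40, 7 and 32 and in INX-315 2 4, 70, 9 and 50, so every guide had fewer counts in both drug libraries than in both DMSO libraries. COX15 behaved otherwise: 1 of its 4 guides held 796 counts at the start and 2223 in DMSO 1, while it held 386 in DMSO 2 and 251 and 238 with INX-315. In CPM over all 4 guides COX15 had 67.1 at the start, 82.5 in DMSO 1, 19.0 in DMSO 2, and 11.9 and 15.1 with INX-315. ATP5I likewise held 54.2 CPM in DMSO 1 and 23.0 in DMSO 2, with 49.8 CPM at the start and 10.4 and 14.9 with INX-315. For both genes the INX-315 libraries lay below either DMSO library, but the distance to DMSO 1 was several times that to DMSO 2.

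**Figure D4:**
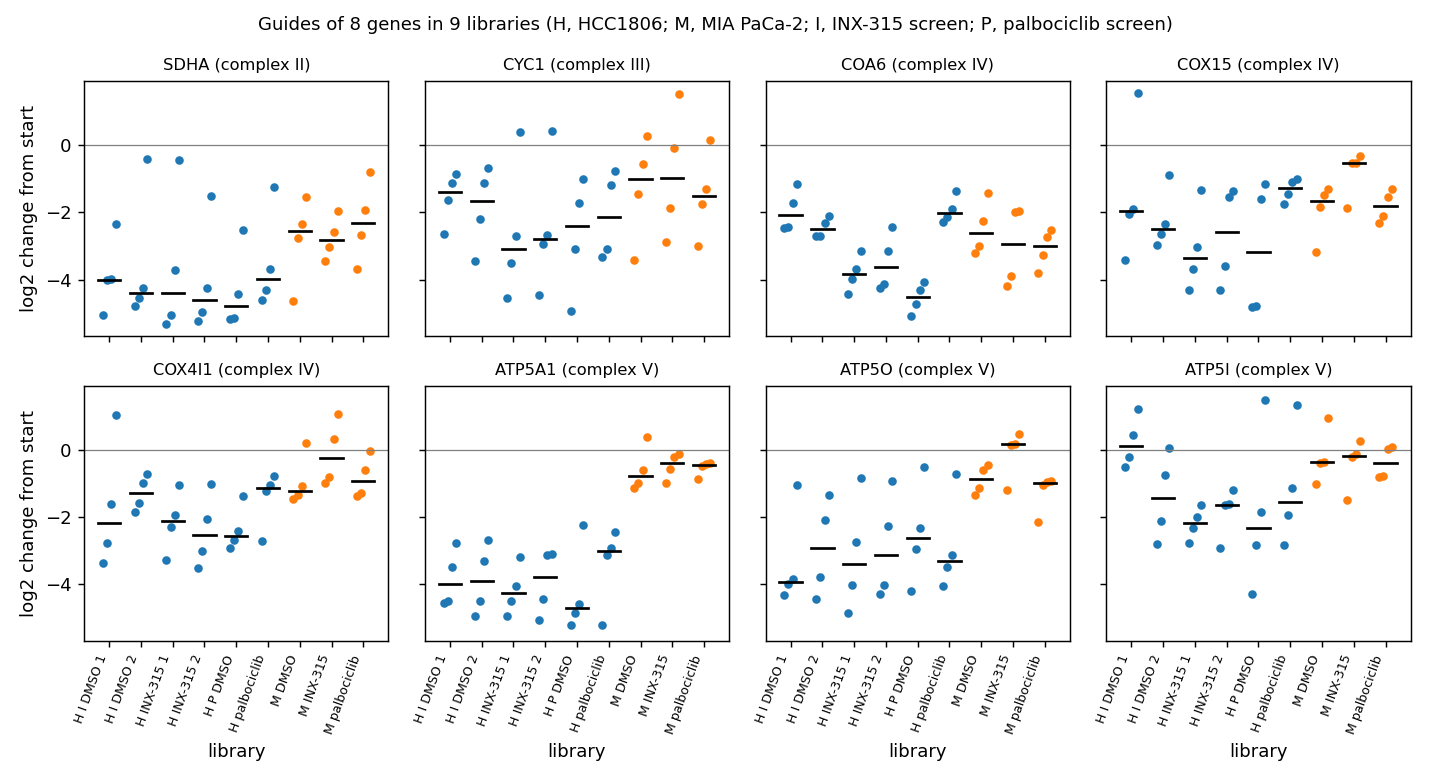
Change from the start (vertical axis, log2 of CPM plus 0.5) of the guides of 8 genes in the 9 libraries after the start (horizontal axis). Points are guides, black lines are medians over guides, blue marks HCC1806 and orange MIA PaCa-2. COA6 guides are lowest in DMSO of the palbociclib screen, and 1 guide of COX15 stands above its start level in DMSO 1.

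In the HCC1806 palbociclib screen the 13 enriched genes were 1 of complex II (SDHC), 1 of complex III (UQCC2), 9 of complex IV and 2 named for complex V (ATPAF2 and ATP5SL). COA6 had the highest score (4.28), followed by UQCC2 (3.21), SCO2 (3.19), COX5B (2.97), ATP5SL (2.91) and COX15 (2.86). COX8A, a small subunit, had 2.54, COX17 2.45, SCO1 2.43, ATPAF2 2.37, SDHC 2.10, COA5 2.08 and LRPPRC 2.05. Of the 9 in complex IV, 7 were assembly or expression factors and 2 were subunits. All 13 had been lost from the start in the DMSO library of that screen, which is also the control of the score. Of the 42 members lost in that DMSO library, 38 were higher with palbociclib than in DMSO, as were 73.1% of all genes lost there.

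For COA6, the 4 guides held 295, 510, 443 and 787 counts at the start of that screen, 0, 17, 2 and 9 in DMSO, and 118, 116, 88 and 224 with palbociclib. In summed guides that is 64.9, 0.81 and 15.4 CPM. Each guide was higher with palbociclib than in DMSO and below its start. SCO2 held 68.1 CPM at the start, 1.87 in DMSO and 12.4 with palbociclib, and COX5B held 58.3, 7.61 and 20.1. UQCC2 held 57.6, 2.59 and 11.8 CPM.

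Many of these scores rest on guides with few counts in DMSO. When guides with fewer than 30 counts in DMSO were left out, 4 members remained enriched (COA5, COX8A, LRPPRC and SCO1, at 2.37, 2.74, 2.19 and 2.65), against 1.70% of all genes. COA6 and SCO2 then had no guide left, UQCC2, COX5B and ATP5SL had 1 each, and COX15 had 0.05 with 2 guides. The filter acts on the control of the score and removes the guides most lost in DMSO, so it does not test those calls. The median normZ of the 74 genes was 0.49 under it. These values come from 1 library per group and have no replicate check.

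COA5, COA6 and COX15 were depleted with INX-315 and enriched with palbociclib in HCC1806. They were 3 of 74 members, and 0.172% of all genes did so. The pattern was not particular to the members, as 4 of the 45 NDUF genes of complex I also had it. Of the 76 genes of the mitochondrial ribosome 0 did. The controls of these comparisons are separate, and they differed: COA6 held 17.6 and 10.6 CPM in the DMSO libraries of the INX-315 screen and 0.81 CPM in that of the palbociclib screen. Its levels with drug, 3.27 and 5.33 CPM with INX-315 and 15.4 CPM with palbociclib, lay on either side of the INX-315 controls' lower value. Of the 74 members, 33 were lower relative to the start in DMSO of the palbociclib screen than in both DMSO libraries of the INX-315 screen, as did 16.5% of all genes. The part that the difference between the control libraries plays in the opposite scores was not tested, and a test of the drugs against each other within HCC1806 would set separate screens beside each other.

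**Figure D5:**
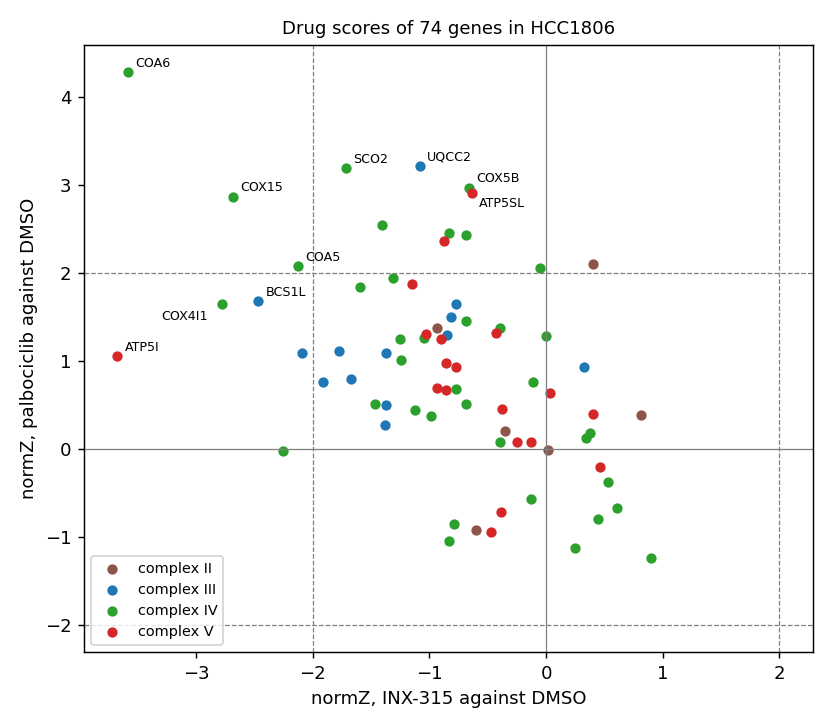
Drug scores of the 74 genes in HCC1806, with the normZ for INX-315 on the horizontal axis and for palbociclib on the vertical axis, coloured by complex. Dashed lines mark −2 and 2; COA6, COX15 and COA5 lie beyond both lines at the upper left, and 52 of the 74 genes lie with INX-315 below 0 and palbociclib above 0.

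In MIA PaCa-2 with INX-315 the 3 enriched genes were COX11 (2.36), which brings copper to the first core subunit of complex IV, ATP5H (2.34, ATP5PD), a subunit of the peripheral stalk, and COX15 (2.03). COX11 held 66.1 CPM at the start, 25.6 in DMSO, 73.0 with INX-315 and 25.3 with palbociclib. ATP5H held 53.8, 31.7, 65.3 and 38.6 CPM in that order, and COX15 held 15.0, 39.1 and 16.8 after the start. The INX-315 library was the highest of the 3 libraries after the start for each of these genes. Of the 30 members lost in MIA PaCa-2 DMSO, 21 were higher with INX-315, as were 55.8% of all genes lost there. That DMSO library is also the control of the score. With palbociclib 20 of the 30 were higher than in it, as were 64.2% of all genes lost there.

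The INX-315 effect itself was compared between the lines by the interaction in edgeR. No member and none of 18050 genes had an adjusted p under 0.05, and DESeq2 also called 0 members. At an unadjusted p under 0.05, 5 members (COX11, ATP5J2, UQCRQ, COX4I1 and UQCRH) were lower in HCC1806 relative to MIA PaCa-2, against 1.28% of all genes, and 1 (COX6A1P2) was higher, against 1.12%. COX11 had the smallest p (0.0227, adjusted p = 0.948), with a difference of −2.29 ± 0.68 (SE, log2), and COX4I1 had −2.02 ± 0.66. The difference was below 0 in 61 of the 74 genes, with medians of −0.87 in complex III, −0.86 in complex V, −0.56 in complex IV and −0.55 in complex II, and −0.03 over all genes. Without DMSO 1 edgeR called 22 members lower and 5 higher, and without DMSO 2 36 and 5, with 16.7% and 31.0% of all genes called lower. Higher calls then numbered 3160 and 5952 of 18050 genes. COX15 was the sole member depleted in HCC1806 and enriched in MIA PaCa-2 with INX-315, as were 0.0554% of all genes.

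With palbociclib in MIA PaCa-2, the 4 depleted members were TTC19 (−2.83), which clears fragments of the Rieske protein from complex III, SDHAF1 (−2.73), COX6A1P2 (−2.43) and UQCRC1 (−2.25). SDHAF1, TTC19 and COX6A1P2 were not lost in MIA PaCa-2 DMSO (−0.16, −0.29 and 0.15), and their changes from the start with palbociclib were −1.02, −0.66 and −0.28. COX6A1P2 is a copy of COX6A1, and its guides may also cut the parent gene, which had a normZ of 1.31.

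The drugs were set against each other directly in MIA PaCa-2, where they shared 1 screen. With INX-315 over palbociclib, SDHB was the 1 depleted member (−2.33), against 2.91% of all genes, and COX11 (2.26) and ATP5O (2.14) were enriched, against 1.46%. SDHB held 12.1 CPM in DMSO, 5.02 with INX-315 and 17.9 with palbociclib, and ATP5O held 23.5, 45.8 and 18.6. Of the 10 reference genes, SDHA, UQCRFS1, ATP5A1 and ATP5B passed a normZ of 2 in size in none of these drug comparisons. COX4I1 and CYC1 did so with INX-315 in HCC1806, COX5B and LRPPRC with palbociclib in HCC1806, UQCRC1 with palbociclib in MIA PaCa-2, and SDHB for INX-315 over palbociclib.

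Complex I, the entry point of the chain for electrons from NADH, and the mitochondrial ribosome, which makes the mitochondrially encoded subunits, were set beside the members. They were chosen by name, and groups with the most alike pattern were not searched for. The 45 NDUF genes of complex I had median normZ values of −1.32 with INX-315 in HCC1806 and 0.40 in MIA PaCa-2. In HCC1806 11 of them were depleted with INX-315, against 2.77% of all genes. With palbociclib in HCC1806 11 of them were enriched, against 1.98% of all genes, and 1 was depleted, against 2.56%. The 76 genes of the mitochondrial ribosome had −0.29 with INX-315 and 0.95 with palbociclib in HCC1806, with 1 depleted and 8 enriched, against the same 2.77% and 1.98%. For loss from the start, complex I had medians of −0.95 and −0.24 in DMSO 1 and DMSO 2 and −2.31 in the palbociclib screen, and the mitochondrial ribosome had −2.78, −1.91 and −2.01. In MIA PaCa-2 DMSO they had −0.25 and −1.04. No test of these groups against one another was made.

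Among 31 other genes of the pathway, such as cytochrome c and further assembly factors, 7 were depleted and 0 enriched with INX-315 in HCC1806. Of all genes 2.77% and 1.44% were. With palbociclib in HCC1806 0 were depleted and 5 enriched, against 2.56% and 1.98% of all genes. In MIA PaCa-2 0 were called with INX-315, against 2.86% of all genes depleted and 1.63% enriched, and 2 were depleted with palbociclib, against 2.65%. Of the 7 depleted with INX-315 in HCC1806, 4 were among the 11 genes of ubiquinone synthesis, the carrier that complexes II and III use. PDSS2 and COQ2, which build and attach the ubiquinone tail, had −3.53 and −3.05 with INX-315. With palbociclib they had 3.54 and 1.85, and in MIA PaCa-2 with INX-315 0.76 and 0.98.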

How the data were processed

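Guide counts were made by the authors with MAGeCK (5.9 per the labels) from PCR products of genomic DNA, after Trim Galore 0.6.7, and were deposited raw. In the deposited normalized tables the signal of a guide equals its count times 1 factor per library. Gene names were read from guide names, because the gene column of 109 guides had been turned into dates. The 142 guides against LacZ, luciferase and EGFP were left out of the scores. The 74 symbols matched RefSeq, 17 under a newer name. Library totals of 24946956 to 58875726 counts set the counting precision.

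The DrugZ score was rewritten (Python 3.11.15 with pandas 2.3.3, numpy 2.4.6 and scipy 1.17.1) with a pseudocount of 5, scaling to 10000000 counts and windows of 1000 guides in steps of 25; the HCC1806 INX-315 libraries were paired with DMSO by number, as DrugZ does. edgeR 4.0.16 (TMM, limma 3.58.1, R 4.3.3) and DESeq2 1.42.0 tested counts summed over guides, with Benjamini-Hochberg adjustment. DrugZ and edgeR were tested on simulated data. Figures used matplotlib 3.10.9. Genes named are those past a normZ of 2 in size against DMSO, the 5 most lost in each line, those past an adjusted p of 0.05 in edgeR (none), and 10 references (SDHA, SDHB, UQCRC1, UQCRFS1, CYC1, COX4I1, COX5B, ATP5A1, ATP5B and LRPPRC); other genes were named to describe their complex after their values were seen. The members and lists were chosen with earlier results of these data known. Guide sequences and the genome build of the guide positions were not used here.

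Alternatives were pseudocounts of 1 and 20, guides with at least 30 control or start counts, scaling on olfactory receptor guides, the deposited normalized counts, other thresholds, 0.1 or 2 CPM added, each replicate left out, a replicate block or none, DESeq2, other size factors and no filter on low counts.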

Additional observations from a re-analysis of the deposited data

Results flagged for a closer look

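Members called with INX-315 in either line, whose score lay below 0 in both replicate pairs of HCC1806 and above 0 in MIA PaCa-2, numbered 8. They were picked by the scores listed here, and the share of all genes under this rule is not given. By sign alone, 43 of the 74 members had a score below 0 in HCC1806 and above 0 in MIA PaCa-2. So did 30 of the 45 NDUF genes of complex I and 24.6% of all genes. With the HCC1806 normZ first and that of MIA PaCa-2 second, COX15 had −2.68 and 2.03, BCS1L −2.47 and 1.92, and COX11 −1.59 and 2.36. COX4I1 had −2.77 and 1.39, and CYC1 −2.09 and 1.17. COX4I2 had −2.25 and 0.30, COA5 −2.12 and 0.19, and ATP5I −3.68 and 0.04. The difference of these scores was not tested; the interaction on gene sums in edgeR passed for 0 members. MIA PaCa-2 has 1 library per group, and groups here hold too few libraries for a search for single outlying values.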

How the results depend on the processing

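Of the recomputed counts, 111 stayed within 1.5 times the value reported and 36 did not. Member scores were recomputed in this count only where the reported normZ was past 2 in size. None of these changed sign, and 155 of the recomputed scores kept their side of the threshold while 38 did not. Smaller scores were not counted and could change sign. For INX-315 in HCC1806, ATP5B had 1.10 against DMSO 2 alone and −1.49 against DMSO 1 alone. The cause was not tested where none is named.

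A pseudocount of 20 gave 5 depleted members for INX-315 in HCC1806 (8 reported), against 2.62% of all genes. It gave 5 enriched in MIA PaCa-2 (3 reported), against 1.96%. For INX-315 over palbociclib it gave 0 depleted and 4 enriched (1 and 2 reported), against 2.54% and 1.88%. A pseudocount of 1 and the deposited normalized counts each gave 1 depleted for INX-315 in MIA PaCa-2, against 3.10% and 3.09% of all genes. Each gave 1 enriched over palbociclib, against 1.10% and 1.09%. With at least 30 control counts, 4 members were enriched with palbociclib in HCC1806, against 1.70% of all genes. At a normZ of 3, which calls fewer genes by construction, 2 members were depleted with INX-315 in HCC1806, against 0.543% of all genes. With palbociclib 3 were enriched in that line, against 0.244%. In MIA PaCa-2 0 were called, against 0.0720% to 0.427% of all genes by comparison and side. A limit of −2 left 24 lost members in the HCC1806 INX-315 screen, against 9.33% of all genes, and 11 in MIA PaCa-2, against 3.25%. For loss in HCC1806, DESeq2 called 34 members lower, against 9.26% of all genes, and edgeR 3 with no screen block, against 0.753%. Without the palbociclib screen, which left 1 HCC1806 start library, the median log2 change of the members in edgeR was −0.79. For the difference in loss between lines DESeq2 called 1, against 0.155% of all genes.

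Leaving out 1 replicate gave 4 to 10 depleted and 0 to 1 enriched members for INX-315 in HCC1806. In edgeR it gave 0 to 30 lower and 0 to 8 higher for INX-315 in HCC1806, 0 to 36 lower and 0 to 5 higher for the difference in INX-315 effect, 18 to 41 lower for loss, and 0 to 1 for its difference between lines. The high values arise without a DMSO library, and without an INX-315 library edgeR called 0.

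Same-numbered deviations of the DMSO and INX-315 libraries correlated at −0.007. The DMSO libraries correlated at only 0.543 and the INX-315 libraries at 0.964, so this value cannot show whether the library numbers pair the samples. With the replicate block edgeR called 0 members and 7 genes lower for INX-315 in HCC1806. DrugZ with no replicate block called 6 members depleted, against 3.43% of all genes, where 8 members and 2.77% of all genes were reported. Depth limits guides at or near 0 counts in DMSO, for which little further depletion can be measured.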
